A study of Mus musculus with 4 samples.

Results

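Classical monocytes leave the bone marrow with the surface antigen Ly6C and the chemokine receptor CCR2, enter inflamed tissue and turn into macrophages there. Genes of this state are known to decline as such cells mature under M-CSF, the growth factor of macrophages. The 9 genes described here, Ly6c1, Ly6c2, Ccr2, F13a1, Vcan, Plac8, Fn1, Hp and Mgst1, were chosen by name as genes of classical monocytes, with earlier results of these data known. Each had an entry among the 22026 gene symbols of the deposited tables, and all 9 were among the 11851 genes that reached a mean of 1 FPKM (fragments counted relative to the length of the transcript and the size of the library) over the libraries.

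RNA came from bone marrow derived macrophages of C57BL/6 mice aged 8 weeks, grown for 3 days with supernatant of CMG14-12 cells that gave the equivalent of 20 ng/ml of M-CSF. There were 2 libraries labelled wildtype control (WT) and 2 labelled RBP-J KO, with the genotype Rbpj f/f;LysM cre, in which Cre is made from the lysozyme M locus of myeloid cells. RBP-J binds DNA and carries Notch signals to target genes, and the study asked for mRNA levels that it regulates. The labels do not say whether WT mice carried the Cre or the floxed allele, or whether equal replicate numbers share a mouse, litter or day, so that p-values measure the spread between these libraries only.

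Rbpj had 355 FPKM in WT against 51.5 FPKM in RBP-J KO in replicate 1, and 573 against 77.0 FPKM in replicate 2, a 7.06-fold difference. The replicate numbers also differ in other ways. Tables of replicate 1 have a row per gene, and those of replicate 2 a row per transcript, which were added up for each gene. The Y-linked gene Ddx3y had 193 and 174 FPKM in replicate 1 (WT, RBP-J KO) and was listed at 0 in replicate 2, and Xist was listed at 0 in replicate 1 and stood at 268 and 289.9 FPKM in replicate 2. Where 2 values are given for a replicate number, WT comes first. For these reasons each difference is given inside each replicate number as well as over all libraries. Read depth is unknown. All 11 macrophage markers listed were measured, among them Csf1r, the receptor of M-CSF, at 2287 to 4705 FPKM in the 4 libraries.

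Ly6c1 and Ly6c2 are neighbouring genes that both encode Ly6C, a small protein anchored to the cell surface by a lipid. Plac8 encodes a small cysteine-rich protein of immune cells. The 3 genes were higher in RBP-J KO in both replicate numbers, and the stretches before their transcription starts are shown because, of the 9, they had the largest differences by the smaller of the values in replicates 1 and 2. The sequences are the 250 bases before the most upstream RefSeq start in build GRCm38.p6, on the minus strand, at chr15:75048838-75049087 for Ly6c1, chr15:75111972-75112221 for Ly6c2 and chr5:100572206-100572455 for Plac8. Capitals mark TGGGAA, the core letters bound by RBP-J, and GAGGAA, the core letters bound by the myeloid factor PU.1, on either strand. No 2 of the marked matches overlap.
Ly6c1: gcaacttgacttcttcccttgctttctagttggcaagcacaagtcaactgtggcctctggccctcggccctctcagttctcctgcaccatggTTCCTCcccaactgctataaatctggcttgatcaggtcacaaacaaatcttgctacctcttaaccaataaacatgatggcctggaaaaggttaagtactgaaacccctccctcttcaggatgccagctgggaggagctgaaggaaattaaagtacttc
Ly6c2: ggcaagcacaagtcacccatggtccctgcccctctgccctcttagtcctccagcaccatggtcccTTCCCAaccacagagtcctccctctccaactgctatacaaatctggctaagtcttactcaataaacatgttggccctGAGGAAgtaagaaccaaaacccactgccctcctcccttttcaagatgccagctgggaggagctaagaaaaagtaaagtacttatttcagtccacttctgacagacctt
Plac8: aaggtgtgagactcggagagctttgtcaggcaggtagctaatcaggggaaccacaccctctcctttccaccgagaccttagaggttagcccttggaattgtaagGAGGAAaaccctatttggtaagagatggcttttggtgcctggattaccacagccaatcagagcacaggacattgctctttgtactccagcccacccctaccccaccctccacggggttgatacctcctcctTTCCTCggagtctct
RefSeq starts were matched for 7 of the 9 members, all except Fn1 and Hp. TGGGAA was found for 2 of these 7 (Ly6c2, Vcan), and in 21.5% of the same windows of 27025 genes. GAGGAA was found for 4 of 7 (Ly6c1, Ly6c2, F13a1, Plac8), against 23.1% of all windows. The interferon response element, GAAA and GAAA spaced by 2 bases, was in 0 of 7 windows and 3.05% of all, and the STAT element TTCNNNGAA, which reads the same on both strands, in 0 of 7 and 7.14% of all. In Ly6c2 the TGGGAA match lies on the reverse strand, 185 to 180 bases before the start. Over 216 aligned bases the windows of Ly6c1 and Ly6c2 were 75.9% identical. A match is a description of these letters only.

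Ly6c2 was the more abundant of the Ly6C genes, with 196 FPKM in WT against 495 FPKM in RBP-J KO in replicate 1, and 15.2 against 50.7 FPKM in replicate 2. It was 2.51-fold higher in RBP-J KO in replicate 1 and 3.18-fold higher in replicate 2, where folds are taken on the log2(FPKM + 1) scale. The groups overlap, because both replicate 2 libraries lie below both replicate 1 libraries. Between replicate numbers the gap was 12.2-fold in WT and 9.60-fold in RBP-J KO, larger than the gap between genotypes. Over all libraries RBP-J KO was 2.83-fold higher (SE 1.63 on the log2 scale), and the log2 difference turned to -0.13 without RBP-J KO replicate 1 and to -0.30 without WT replicate 2.

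Ly6c1 followed the same pattern at a lower level. It was at 49.9 FPKM in WT and 160.3 in RBP-J KO in replicate 1, against 5.54 and 17.7 FPKM in replicate 2, which is 3.17-fold and 2.86-fold higher in RBP-J KO (log2 difference 1.59, SE 1.44). The level of Ly6c1 was 25.4% (WT) and 32.4% (RBP-J KO) of that of Ly6c2 in replicate 1, and 36.4% and 34.95% of it in replicate 2. How reads were shared between these genes is uncertain. Their longest GENCODE transcripts are 97.6% identical over 822 aligned bases, and 31.7% of the 50-base words of the Ly6c1 transcript also occur in that of Ly6c2. The description deposited with Ly6c1 names the 6C2 antigen. The sum of both genes was at 246 and 655 FPKM in replicate 1 and 20.8 and 68.4 FPKM in replicate 2 (2.65-fold and 3.19-fold higher in RBP-J KO).

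Plac8 had the largest log2 difference of the 9 genes over all libraries, although that of Fn1 was larger inside replicate 1. It was at 56.2 FPKM in WT and 263 in RBP-J KO in replicate 1, against 10.8 and 56.9 FPKM in replicate 2. RBP-J KO was thus 4.63-fold higher in replicate 1 and 4.91-fold higher in replicate 2 (log2 difference 2.25, SE 1.07). Both RBP-J KO libraries lie above both WT libraries, although RBP-J KO replicate 2 exceeds WT replicate 1 by a narrow margin. Plac8 is the only member that was higher without overlap of the groups, which 11.7% of all genes tested were.

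Ccr2 encodes the receptor for CCL2 and CCL7 that lets monocytes leave the marrow. It was at 123 FPKM in WT and 253 in RBP-J KO in replicate 1, against 94.5 and 105 FPKM in replicate 2. The difference was 2.04-fold in replicate 1 and 1.11-fold in replicate 2. RBP-J KO replicate 2 lies below WT replicate 1, so that the groups overlap. The log2 difference over all libraries was 0.59 (SE 0.47), and -0.042 without RBP-J KO replicate 1. The 4 chemokine genes listed beside it, Ccl2, Ccl7, Ccl8 and Ccl12, were lower in RBP-J KO in both replicate numbers, which 34.1% of all genes tested were. Ccl2 had 3384 FPKM in WT but 191 FPKM in RBP-J KO of replicate 1, with 845 and 622 FPKM in replicate 2.

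**Figure D1:**
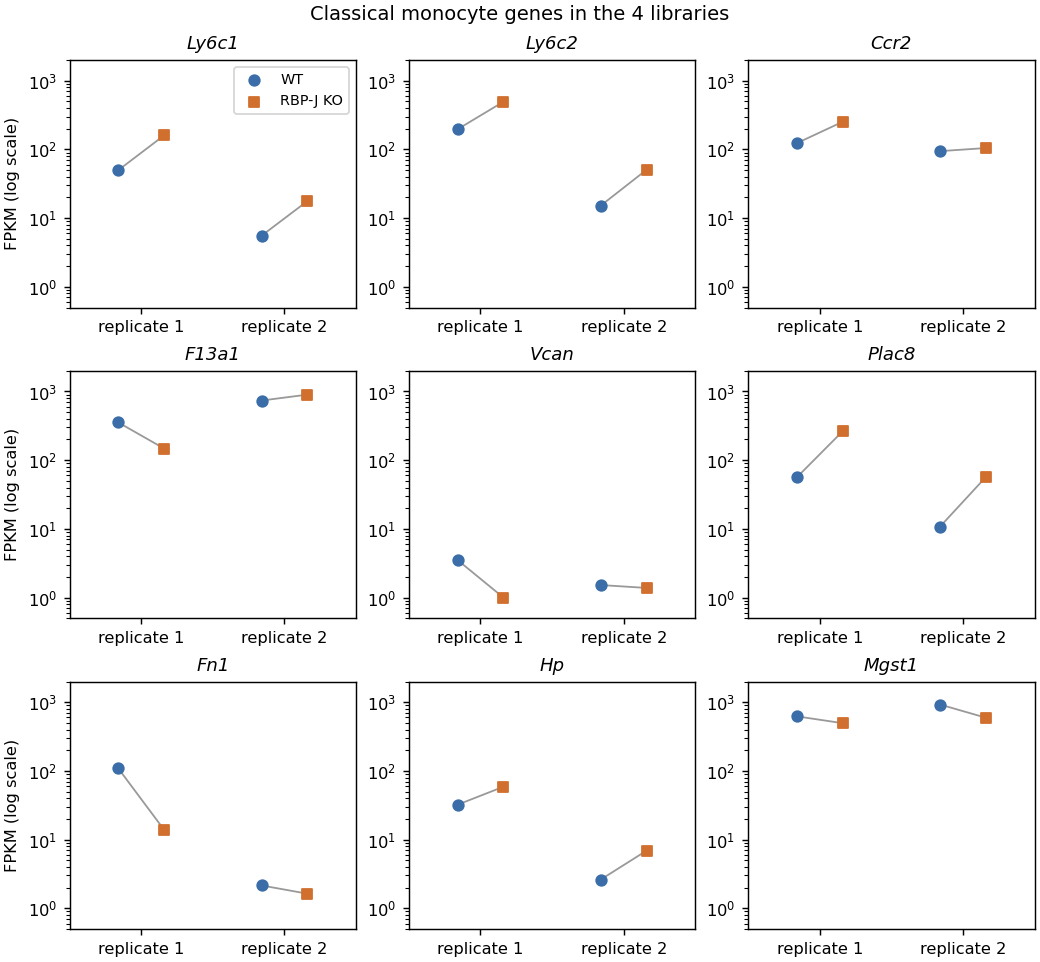
FPKM of the 9 classical monocyte genes (log axis) in each library, with WT as circles and RBP-J KO as squares, joined inside each replicate number. Ly6c1, Ly6c2, Plac8 and Hp have upward lines in both replicate numbers and lie lower in replicate 2, Mgst1 has downward lines, and F13a1 goes opposite ways.

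The secreted members did not share a direction. Hp encodes haptoglobin, the plasma protein that binds free haemoglobin, and is also made by granulocyte precursors. It was at 32.2 FPKM in WT and 58.7 in RBP-J KO in replicate 1, against 2.62 and 6.91 FPKM in replicate 2 (1.80-fold and 2.19-fold higher in RBP-J KO). As with Ly6c2, the groups overlap and both replicate 2 libraries are low. The log2 difference was 0.99 (SE 1.46), and it turned to -0.47 without RBP-J KO replicate 1 and -0.61 without WT replicate 2.

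F13a1 encodes the A subunit of coagulation factor XIII, a transglutaminase that crosslinks fibrin. It was at 354 FPKM in WT and 148 in RBP-J KO in replicate 1, against 738 and 899.9 FPKM in replicate 2. RBP-J KO was thus 2.39-fold lower in replicate 1 and 1.22-fold higher in replicate 2. It is the only member with opposite directions, which 39.4% of all genes tested had, and the only one that was more than 2-fold higher in replicate 2 than in replicate 1 in both genotypes (2.08-fold in WT, 6.06-fold in RBP-J KO). The log2 difference over all libraries was -0.49 (SE 0.95), and it became 0.81 without RBP-J KO replicate 1 and 0.043 without WT replicate 2. Replicate 2 lists 2 transcripts of F13a1, 1 of which held 733 of 738 FPKM in WT and 881 of 899.9 FPKM in RBP-J KO.

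Fn1 encodes fibronectin, a matrix protein that cells bind through integrins. It was at 109 FPKM in WT and 13.9 in RBP-J KO in replicate 1, against 2.15 and 1.63 FPKM in replicate 2. WT replicate 1 stands far above the other 3 libraries: RBP-J KO was 7.38-fold lower in replicate 1 and 1.20-fold lower in replicate 2, and the gap between the WT libraries was 34.8-fold. The log2 difference over all libraries was -1.57 (SE 1.91). It was 0.99 without WT replicate 1, a fit that sets the gap between replicate numbers against the genotypes.

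Vcan encodes versican, a large proteoglycan that binds hyaluronan, and is a marker of classical monocytes in human blood. It had the lowest level of the 9 genes in every library, at 3.52 FPKM in WT and 1 in RBP-J KO in replicate 1, with 1.52 and 1.38 FPKM in replicate 2. RBP-J KO was 2.26-fold lower in replicate 1 and 1.06-fold lower in replicate 2 (log2 difference -0.63, SE 0.51). The groups do not overlap, but all 4 values are near the filter of 1 FPKM. Of the 5 Vcan transcripts listed in replicate 2, isoform 1 was at 0.90 FPKM in WT and 0.78 in RBP-J KO, isoform 4 at 0.60 in both libraries, and the other 3 at 0.02 FPKM or less.

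Mgst1, a glutathione transferase of intracellular membranes, was the steadiest member. It was at 623 FPKM in WT and 495 in RBP-J KO in replicate 1, against 925 and 594 FPKM in replicate 2. RBP-J KO was 1.26-fold lower in replicate 1 and 1.56-fold lower in replicate 2 (log2 difference -0.48, SE 0.27). The WT libraries lie above both RBP-J KO libraries. Vcan and Mgst1 are the 2 members that were lower without overlap, against 18.2% of all genes tested.

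In order of their mean over the 4 libraries, Mgst1 averaged 774 ± 214 FPKM in WT and 545 ± 70.2 in RBP-J KO, and F13a1 546 ± 271 and 524 ± 532 (SD, n = 2). These 2 neighbours did not differ beyond their spread. Ly6c2 (106 ± 128 and 273 ± 314) and Ccr2 (109 ± 20.4 and 179 ± 104) came next and likewise overlapped. Plac8 was at 33.5 ± 32.1 and 160.2 ± 146, Ly6c1 at 27.7 ± 31.3 and 89.0 ± 101, Fn1 at 55.5 ± 75.4 and 7.76 ± 8.66 and Hp at 17.4 ± 20.9 and 32.8 ± 36.6 FPKM. The SD ranges of these 4 genes also overlapped each other. With n = 2, each SD reflects only the gap between replicate numbers. Inside every one of the 4 libraries Plac8 stood above Ly6c1, and Ly6c1 above Hp. Vcan was at 2.52 ± 1.41 and 1.19 ± 0.27 FPKM. Among all genes tested, Mgst1 stood between percentiles 93.1 and 96.9 in every library, whereas Ly6c2 ranged from percentile 21.6 in WT replicate 2 to 93.0 in RBP-J KO replicate 1.

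Read against all genes, 4 of 9 members (Ly6c1, Ly6c2, Plac8, Hp) were at least 1.5-fold higher in RBP-J KO in both replicate numbers, a rule met by 3.86% of all genes tested, and 0 of 9 were at least 1.5-fold lower in both, against 3.63%. Irrespective of size, 5 of 9 were higher in both (these 4 and Ccr2; 25.1% of all genes) and 3 of 9 lower in both (Fn1, Vcan, Mgst1; 34.1%). The median log2 difference of the 9 genes was 0.85 in replicate 1 and 0.29 in replicate 2, beside -0.05 and -0.02 for all genes tested. No member passed the test: limma with Benjamini-Hochberg adjustment over 11851 genes gave an adjusted p of 0.999 for each of the 9, and 0 of 9 had an unadjusted p under 0.05. Over all genes 0 passed (0% of genes tested), and 2.19% were higher and 2.24% lower at an unadjusted p under 0.05. This model keeps the gap between replicate numbers in its error, so not passing does not show that these genes were alike in both genotypes.

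**Figure D2:**
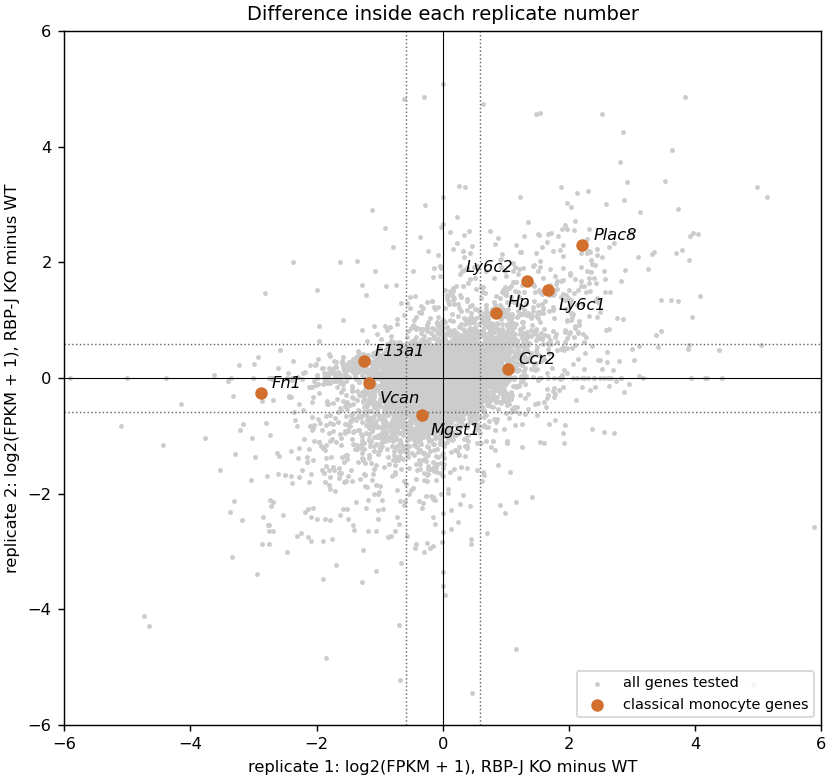
Difference between RBP-J KO and WT on the log2(FPKM + 1) scale in replicate 1 (x axis) and replicate 2 (y axis) for all genes tested (grey) and the 9 members (orange); dotted lines mark 1.5-fold, and 3 genes lie beyond the axes. Plac8, Ly6c1, Ly6c2 and Hp are past 1.5-fold on both axes, Ccr2, Fn1, Vcan and F13a1 only in replicate 1 and Mgst1 only in replicate 2, and F13a1 lies to the upper left of the origin.

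For Ly6c1, Ly6c2 and Hp the gap between replicate numbers, at least 7.55-fold, was larger than that between genotypes, and for Plac8 both gaps lay between 4.57-fold and 4.91-fold. In FPKM, Ly6c1, Ly6c2, Plac8, Hp and Fn1, 5 of 9, were more than 2-fold lower in replicate 2 in both genotypes, which 5.21% of all genes tested were. The median log2 difference of replicate 2 from replicate 1 over the 9 genes was -2.28 in WT and -2.19 in RBP-J KO, beside -0.12 and -0.09 for all genes. Markers of neutrophils and their precursors were also lower in replicate 2: their 16 listed genes summed to 7496 and 9015 FPKM in replicate 1 and to 412 and 1295 FPKM in replicate 2, mostly from S100a8, S100a9 and Ngp. Mmp8, a collagenase of neutrophils, was an exception, at 84.8 FPKM in RBP-J KO of replicate 1 and 189 FPKM in that of replicate 2. In RBP-J KO 13 of these 16 were higher in both replicate numbers and 0 lower in both, beside 25.1% and 34.1% of all genes tested. The medians of the 16 were 0.32 and 1.73 on the log2 scale, and S100a8 was only 1.20-fold higher in replicate 1. Granule genes of precursors were among the 13 higher in both: Elane, neutrophil elastase, was at 79.0 and 172 FPKM in replicate 1 and 7.04 and 28.0 FPKM in replicate 2. The part of such cells in the values of Ly6c1, Ly6c2, Plac8 and Hp was not tested, and fewer cells of a type cannot be told apart from less RNA per cell in bulk RNA.

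Markers of other cell types that use member genes were present at unequal levels. The counts given for them stand beside all genes tested. Of these, 25.1% were higher in both replicate numbers, 34.1% lower in both and 39.4% opposite. For endothelial cells, which express Ly6c1, the 8 markers summed to 52.3 and 139 FPKM in replicate 1 and to 11.0 and 24.4 FPKM in replicate 2. This sum was higher in RBP-J KO in both, as Ly6c1 was. Most of it was Kdr, a receptor of VEGF, which was 3.09-fold and 2.53-fold higher. Of the 5 markers measured, 3 were higher in both replicate numbers and 0 lower in both. Esam was lower in RBP-J KO in replicate 1 (4.0 and 3.72 FPKM), and Egfl7 in replicate 2 (3.33 and 2.29 FPKM). Cdh5, the junction protein VE-cadherin, was at 7.09 and 8.29 FPKM in replicate 1 and 0.64 and 1.34 in replicate 2, and Tek and Plvap were at 0 in all libraries. For megakaryocytes, which make F13a1, the 5 markers summed to 3494 and 2810 FPKM in replicate 1 and to 3024 and 4324 FPKM in replicate 2. This sum was lower in RBP-J KO in replicate 1 and higher in replicate 2, as F13a1 was. Most of this was Pf4, platelet factor 4, which macrophages are also known to express, whereas Ppbp, another platelet chemokine, was at 404 and 271 FPKM in replicate 1 and 8 and 21.2 FPKM in replicate 2. Of these 5 markers, 2 were higher in both replicate numbers, 0 lower in both and 2 (Pf4, Ppbp) opposite. The 2 higher were Itga2b (32.24 and 36.06 FPKM, then 0 and 3.69) and Gp1ba (15.96 and 16.22 FPKM, then 0.71 and 1.6). Both were lower in replicate 2 in both genotypes, whereas F13a1 was higher there. The 9 stromal markers, of cells that make Fn1 and Vcan, summed to 6.93 and 4.25 FPKM in replicate 1 and to 0.81 and 0 FPKM in replicate 2, with Dcn, Lum and Pdgfra at 0 in all libraries. Fn1 stood at 109 FPKM in WT replicate 1, where Col1a1, the main collagen of stromal cells, was at 2.47 FPKM. The 6 progenitor markers summed to 48.9 and 112 FPKM in replicate 1 and to 8.68 and 24.4 FPKM in replicate 2. The 11 dendritic cell markers summed to 2637 and 3420 FPKM in replicate 1 and 2137 and 3021 FPKM in replicate 2. Most of this sum was Bst2, at 2593 and 3229 FPKM in replicate 1 and 2075 and 2969 FPKM in replicate 2. Of the 9 measured, 6 were higher in RBP-J KO in both replicate numbers, 0 lower in both and 2 went opposite ways. Itgax, 1 of these 2, was at 24.1 and 95.1 FPKM in replicate 1 and 40.0 and 22.4 FPKM in replicate 2. The 8 markers of mast cells, basophils and eosinophils summed to 73.3 and 184 FPKM in replicate 1 and to 9.78 and 45.1 FPKM in replicate 2. The part of these cell types in the members' values was not tested.

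**Figure D3:**
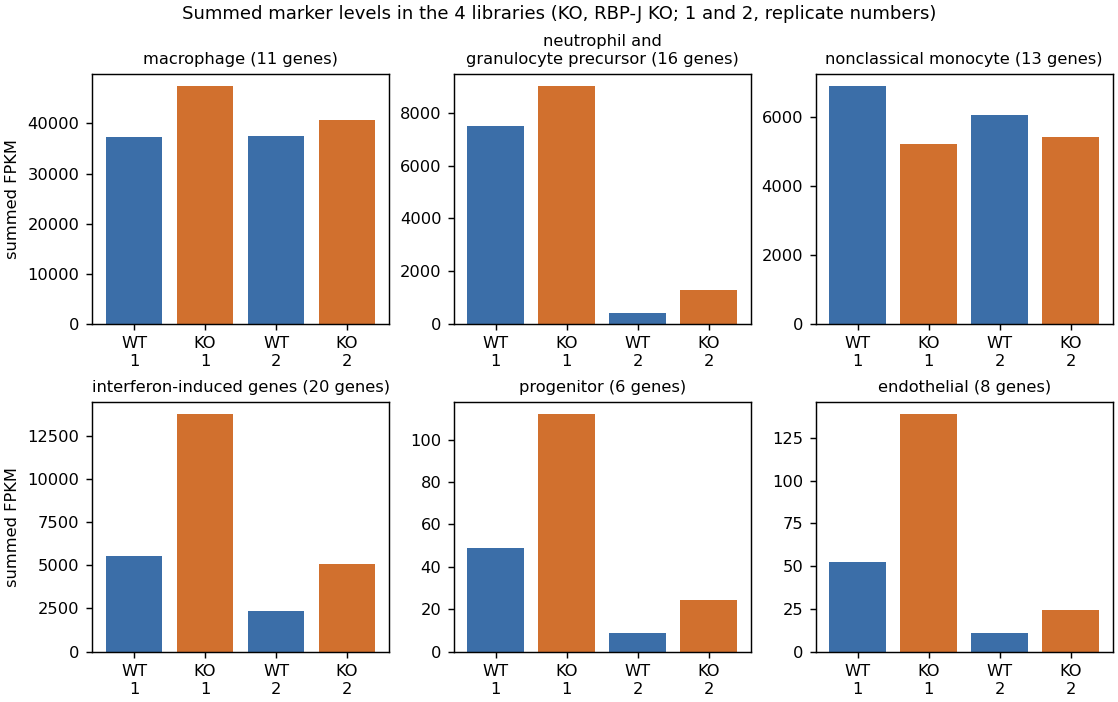
Summed FPKM of marker lists (bars from 0) in the 4 libraries, WT in blue and RBP-J KO in orange. Macrophage markers lie between 37290 and 47413 FPKM in all libraries, whereas neutrophil markers are at 7496 and 9015 FPKM in replicate 1 and 412 and 1295 FPKM in replicate 2.

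The genes on the Ly6c1 side of the pair on chromosome 15 had the same direction. In the order of the RefSeq annotation Ly6e, Ly6i, Ly6a, Ly6c1 and Ly6c2 are consecutive protein-coding genes. All 5 were at least 1.5-fold higher in RBP-J KO in both replicate numbers, a rule met by 3.86% of all genes tested. Ly6a, the stem cell antigen Sca-1, was at 662 and 5185 FPKM in replicate 1, against 135 and 781 FPKM in replicate 2, or 7.82-fold and 5.75-fold higher. Ly6i was at 11.3 and 122 FPKM in replicate 1, against 1.67 and 10.8 FPKM in replicate 2. Ly6e, a restriction factor of viruses in the same family, was at 2931 and 8836 FPKM in replicate 1, against 1459.7 and 4842 FPKM in replicate 2. On the Ly6c2 side, Ly6a2, Ly6g and Ly6g2 were not analysed here, and Ly6f and Ly6h, further along the cluster, were at 0 in all libraries. Of 23 other Ly6 family genes with an entry, 6 were measured and 14 were at 0 throughout. Among the 6 measured, 3 were higher and 2 lower in both replicate numbers, beside 25.1% and 34.1% of all genes tested. Cd59b, 1 of the 2 lower, was at 20.3 and 9.30 FPKM in replicate 1 and 8.61 and 5.55 FPKM in replicate 2. Ly6c genes, Ly6a and Ly6e are known to respond to interferon. The 20 interferon-induced genes listed were all higher in both replicate numbers, beside 25.1% of all genes tested. Their summed levels were 5528 and 13744 FPKM in replicate 1 and 2354 and 5062 FPKM in replicate 2. The part of interferon in the Ly6 values was not tested.

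**Figure D4:**
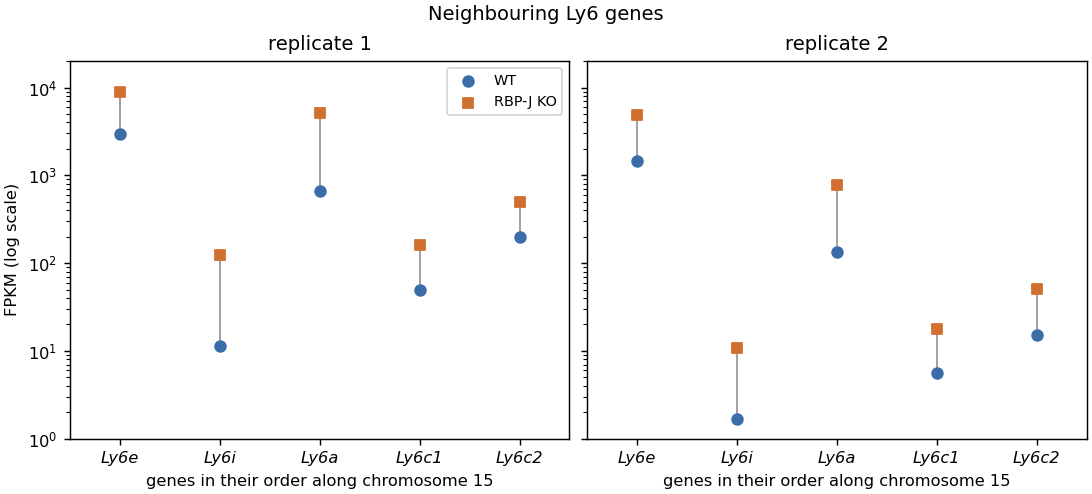
FPKM (log axis) of Ly6e, Ly6i, Ly6a, Ly6c1 and Ly6c2 in their order along chromosome 15, with WT as circles and RBP-J KO as squares, in replicate 1 (left) and replicate 2 (right). RBP-J KO lies above WT for all 5 genes in both panels, and the levels are lower in replicate 2.

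Other genes of the monocyte programme were divided. Of 28 listed, 13 were higher and 10 lower in both replicate numbers, beside 25.1% and 34.1% of all genes tested. Their medians were 0.55 in replicate 1 and 0.09 in replicate 2. By at least 1.5-fold in both, 10 were higher and 6 lower, beside 3.86% and 3.63% of all genes. The 6 lower include Lyz2, the lysozyme M gene, whose locus carries the Cre of the RBP-J KO mice. It was at 218 and 94.3 FPKM in replicate 1 and 192 and 115 FPKM in replicate 2. The part of the Cre in these values was not tested. Ccr1, a chemokine receptor of monocytes and neutrophils, was at 66.9 and 213 FPKM in replicate 1, against 39.3 and 226 FPKM in replicate 2. Ms4a4c, a membrane protein of the MS4A family, was 7.36-fold and 3.66-fold higher. S100a4, a calcium-binding protein abundant in monocytes, was lower, at 5461 and 1737 FPKM in replicate 1 and 8687 and 2629 FPKM in replicate 2. None of the 28 passed limma with adjustment over all genes, and 5 were higher and 5 lower at an unadjusted p under 0.05.

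Of 14 transcription factors of monocytes listed, 10 were higher and 3 lower in both replicate numbers, beside 25.1% and 34.1% of all genes tested. Their median log2 difference was 0.145 in replicate 1 and 0.121 in replicate 2. By at least 1.5-fold in both, 0 were higher and 1 lower, beside 3.86% and 3.63% of all genes. The lower gene was Klf4, a factor that drives monocyte formation, at 13.2 and 4.45 FPKM in replicate 1 and 27.2 and 5.39 FPKM in replicate 2. Cebpa, a factor of myeloid precursors, was at 510.4 and 804 FPKM in replicate 1, against 206 and 234 FPKM in replicate 2.

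Partners of the single members are given from lists of their known binding partners and enzyme families. Counts in these lists stand beside 25.1% of all genes tested that were higher, and 34.1% that were lower, in both replicate numbers. For Ccr2, the list held 11 ligands and related receptors, of which 5 were higher and 4 lower in both replicate numbers. Cx3cr1, the receptor that marks the nonclassical monocytes into which classical ones turn, was at 303 and 845 FPKM in replicate 1, against 30.6 and 746 FPKM in replicate 2. Of the 12 nonclassical monocyte markers measured, Cx3cr1 among them, 10 were higher in both replicate numbers, with medians of 1.28 and 0.67 on the log2 scale. By at least 1.5-fold in both, 6 were higher and 2 lower (Cd36, Fabp4), beside 3.86% and 3.63% of all genes tested. Treml4, a receptor of these cells, was 5.98-fold and 8.01-fold higher. The ligand Ccl7 was at 1945 and 55.6 FPKM in replicate 1, against 346 and 194 FPKM in replicate 2.

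For F13a1, 16 of 22 coagulation and transglutaminase genes were measured, with 3 higher and 5 lower in both. Tgm2, the tissue transglutaminase, was at 511 and 1011 FPKM in replicate 1, against 111 and 401 FPKM in replicate 2. Anxa2, which assembles plasminogen at the cell surface, was lower, at 2769 and 1482 FPKM in replicate 1 and 2511 and 1438 FPKM in replicate 2. F13b, the carrier subunit of factor XIII, was at 0 in all libraries.

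For Vcan, 9 of 28 hyaluronan and versican partners were measured, 1 higher and 5 lower in both, and 0 by at least 1.5-fold in both. Hyal1, a lysosomal hyaluronidase, was at 54.0 and 36.02 FPKM in replicate 1, against 58.0 and 27.2 FPKM in replicate 2. For Fn1, 15 of 22 receptors and matrix partners were measured, 6 higher and 6 lower in both. Itga9, an integrin chain that binds a spliced form of fibronectin, was at 30.6 and 94.2 FPKM in replicate 1, against 38.2 and 89.2 FPKM in replicate 2. Itgb5, the partner chain of Itgav, was 2.11-fold and 1.84-fold higher. Spp1, which encodes osteopontin, was lower, at 13842 and 1362 FPKM in replicate 1 and 9557 and 1112 FPKM in replicate 2.

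For Hp, 6 of 8 partners were measured, 3 higher and 3 lower in both. Cd163, the macrophage receptor for haptoglobin with haemoglobin, was at 35.2 and 4.61 FPKM in replicate 1, against 58.0 and 44.4 FPKM in replicate 2. Hmox1, the enzyme that opens the haem ring, was lower, at 3224 and 1439 FPKM in replicate 1 and 3234 and 1853 FPKM in replicate 2. Slc40a1 was higher, at 895 and 4076 FPKM in replicate 1 and 1374 and 6159 FPKM in replicate 2. For Mgst1, 27 of 30 glutathione enzymes were measured, with medians of -0.05 and -0.37. In both replicate numbers 1 was higher and 10 lower, where 25.1% and 34.1% of all genes tested were. Gpx1, a glutathione peroxidase, was at 1398 and 872 FPKM in replicate 1, against 1925 and 789 FPKM in replicate 2, and Gstm2, a soluble transferase, at 26.3 and 9.56 FPKM and at 16.8 and 6.56 FPKM. No gene of these lists passed limma with adjustment over all genes.

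The members were compared with each other and with other genes by the root mean square distance between log2(FPKM + 1) profiles over the 4 libraries, each centred on its own mean. This is a description, since 4 libraries allow no correlation. Ly6c1 and Ly6c2 were the closest pair of members (0.24), followed by Ly6c2 and Hp (0.32) and Ly6c1 and Hp (0.32), while F13a1 and Fn1 were farthest apart (2.88). Among the 3 nearest genes, sought where the mean reached 20 FPKM, Cd34, a surface protein of progenitors, was nearest to both Ly6c1 (0.20) and Ly6c2 (0.14), at 30.3 and 83.4 FPKM in replicate 1 and 1.78 and 9.67 FPKM in replicate 2. Elane was among the 3 nearest to Ly6c1 (0.23). Itgal, an integrin chain of leukocytes, was nearest to Plac8 (0.11), and H2-T24, a class I gene, to Hp (0.13). Igfbp4 was nearest to F13a1 (0.10), Slpi, a protease inhibitor, to Fn1 (0.23), Cyp4f13 to Ccr2 (0.05), Gcnt1 to Vcan (0.04) and Add3 to Mgst1 (0.02). Vcan lay between 1 and 3.52 FPKM, where log2(FPKM + 1) understates changes, and Gcnt1 between 174 and 392 FPKM. Their distance is therefore not comparable with those of higher genes.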

How the data were processed

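Per the submitters' processing notes, the authors aligned reads with TopHat and quantified them with Cufflinks on build mm9, with no versions or options given. The deposited values were read as FPKM, the unit Cufflinks writes, although the file headers name none; absolute levels are only described. The replicate 1 tables have a row per gene. Those of replicate 2 have a row per transcript, and these were added up for each symbol; 25 symbols that had become dates were restored.

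Values were tested as log2(FPKM + 1), which understates changes of low genes, for genes averaging 1 FPKM or more, with limma 3.58.1 in R 4.3.3 (group only, variance trend, Benjamini-Hochberg, two-sided, threshold 0.05), after a check on simulated data. Figures used Python 3.11.15 and matplotlib 3.10.9. Folds inside a replicate number are on the same scale. The members and lists were chosen with earlier results of these data known. Genes named are the 9 members, Rbpj, Ddx3y, Xist, defining markers of other cell types, up to 4 genes per list with the largest smaller difference of equal sign in both replicate numbers, and the 3 nearest profiles per member. Csf1r, Ccl2, F13b, Lyz2, S100a8, S100a9, Ngp, Mmp8, Pf4, Ppbp, Cd36 and the genes named as at 0 were named for their role. This was done after their values were seen. Promoter windows are RefSeq's, in GRCm38.p6, and no coordinates were taken from the mm9 tables.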

Additional observations from a re-analysis of the deposited data

Results flagged for a closer look

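F13a1 differed in direction between the replicate numbers. Its log2 difference between RBP-J KO and WT was -1.26 in replicate 1, where Ddx3y was expressed, and 0.29 in replicate 2, where Xist was expressed. The difference between these values was not tested, since each rests on 1 library per genotype.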

How the results depend on the processing

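The 13 other settings gave 0 genes past the adjusted threshold, and no member passed in any of the 116 fits in which one was measured, with adjusted p between 0.0642 and 1. At an unadjusted p under 0.05 the count of all genes was 524, and between 307 and 1557 in these settings. The direction held in 108 of the 116. Filters, the variance trend and the replicate block leave a log2 difference unchanged by design, so those fits could not turn a direction. The 8 in which it turned all leave out 1 library, which sets the gap between replicate numbers against the genotypes. When each library was left out in turn, log2 differences ranged from 0.036 to 3.15 for Ly6c1, -0.30 to 3.30 for Ly6c2, 1.11 to 3.39 for Plac8, -0.042 to 1.22 for Ccr2, -0.61 to 2.59 for Hp, -1.79 to 0.81 for F13a1, -4.13 to 0.99 for Fn1, -1.05 to -0.21 for Vcan and -0.77 to -0.20 for Mgst1. Vcan was not measured at a minimum mean of 5 FPKM. The 4 members at least 1.5-fold higher and the 0 lower in both replicate numbers were as many under other pseudocounts, filters, scalings and the highest transcript per symbol.

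With the replicate block in limma, adjusted p values were 0.0642 for Plac8, 0.0916 for Ly6c1 and Ly6c2, 0.19 for Hp and 0.307 to 0.681 for the others, with unchanged log2 differences (2.25 for Plac8), and 1557 genes had an unadjusted p under 0.05. No label says what equal replicate numbers share. Libraries of equal number deviated together from the group means (r = 0.64 across genes), and they also had the same table layout and the same one of Ddx3y and Xist at 0. Depth is unknown, so the precision of low values such as those of Vcan cannot be given.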
